A study of Mus musculus with 6 samples.

Results

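Matrix proteoglycans are secreted proteins of the extracellular matrix, and 10 of their genes were followed in mouse mammary epithelial cells after knockdown of Id4. They were taken by gene symbol, namely Dcn, Lum, Bgn, Fmod, Ogn, Prelp, Aspn, Vcan, Hspg2 and Agrn, and all 10 were found among the 25655 genes of the count table. Comma-Dβ cells, a long-established line from mouse mammary epithelium, were used at passage 29 and grown with insulin, 5 ng/mL of epidermal growth factor and 2% serum. The control arm (NT, 3 libraries) received an ON-TARGETplus non-targeting siRNA pool and the knockdown arm (siID4, 3 libraries) a siGENOME pool against mouse Id4, both at 20 nM with harvest after 48 hr. The siRNA product line therefore differed between the arms in every library, and the 2 cannot be told apart from these data. The labels call the samples biological replicates of 1 cell line, so p-values measure the spread between cultures of that line.

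A proteoglycan is a core protein to which long sulphated sugar chains, the glycosaminoglycans, are attached in the Golgi. The small leucine-rich proteoglycans (Dcn, Bgn, Aspn, Lum, Fmod, Prelp and Ogn here) have a curved core of leucine-rich repeats that binds collagen, and several of them control the width and spacing of collagen fibrils. Versican, from Vcan, is a large chondroitin sulphate proteoglycan that binds hyaluronan, whereas perlecan, from Hspg2, and agrin, from Agrn, carry heparan sulphate and sit in basement membranes such as the one under the mammary epithelium. Decorin, from Dcn, and biglycan, from Bgn, also bind growth factors of the TGF-β family, and in the gland decorin is known mainly as a product of stromal fibroblasts.

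Total counts per library were between 19216671 and 23095600. Id4 itself in CPM (counts per 1000000 counts) was at 135, 114 and 118 in NT and at 59.4, 62.2 and 48.2 CPM after knockdown (a log2 fold change of −1.11 with SE 0.10, edgeR adjusted p = 0.000865), so the transcript was lowered in every siID4 library and removed in none. Id3, a relative of Id4, rose from 43.8 to 131 CPM (adjusted p = 6.07e-05). All CPM values are scaled by TMM (trimmed mean of M-values), and a gene counts as called where its p, adjusted by Benjamini-Hochberg, is under 0.05 over the 13941 genes that passed a filter on low counts. Of the mammary epithelial markers 10 of 10 were measured, with a summed level of 2617 to 3001 CPM in NT and 2424 to 2830 CPM in siID4. Fibroblast markers were present too, at a summed 5317 to 5861 CPM in NT and 6266 to 6927 CPM in siID4. Among defining markers of other cells, Plin1 of adipocytes and Tie1 of endothelium were at 0 in all 6 libraries, and Ptprc of leukocytes had at most 2 counts in any library. In bulk RNA, fewer cells of a type and less RNA per cell cannot be told apart.

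The promoters of 4 members are shown, and differences in change between these genes were not tested. The interval around the log2 fold change of Aspn (−0.52 to 0.78) held that of Hspg2 (0.08 to 0.29). It overlapped those of Ogn (0.60 to 1.42) and Bgn (0.44 to 1.45). Ogn, Bgn and Hspg2 are the members called in the comparison, and Aspn, which was not called, lies in the same cluster as Ogn on chromosome 13. Each is the RefSeq window on GRCm38.p6 from 250 bases before to 50 bases after the annotated start, 5′ to 3′ on the gene's strand. Capitals mark the letters CANNTG, the E-box core to which basic helix-loop-helix dimers bind. ID proteins block some of these pairings and not all of them. CANNTG reads the same on both strands.

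Ogn, chr13:49607765-49608064, plus strand: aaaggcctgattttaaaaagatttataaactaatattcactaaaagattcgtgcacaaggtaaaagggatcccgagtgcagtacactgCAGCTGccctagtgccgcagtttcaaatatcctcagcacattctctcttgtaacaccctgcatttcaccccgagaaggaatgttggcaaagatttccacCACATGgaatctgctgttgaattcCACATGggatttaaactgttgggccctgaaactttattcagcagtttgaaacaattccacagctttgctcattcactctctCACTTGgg

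Bgn, chrX:73483351-73483650, plus strand: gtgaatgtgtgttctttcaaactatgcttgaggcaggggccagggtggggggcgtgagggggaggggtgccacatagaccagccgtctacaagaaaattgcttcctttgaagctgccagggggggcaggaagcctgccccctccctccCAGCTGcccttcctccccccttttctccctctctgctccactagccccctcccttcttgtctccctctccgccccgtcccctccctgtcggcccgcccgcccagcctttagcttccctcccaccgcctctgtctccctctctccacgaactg

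Hspg2, chr4:137468553-137468852, plus strand: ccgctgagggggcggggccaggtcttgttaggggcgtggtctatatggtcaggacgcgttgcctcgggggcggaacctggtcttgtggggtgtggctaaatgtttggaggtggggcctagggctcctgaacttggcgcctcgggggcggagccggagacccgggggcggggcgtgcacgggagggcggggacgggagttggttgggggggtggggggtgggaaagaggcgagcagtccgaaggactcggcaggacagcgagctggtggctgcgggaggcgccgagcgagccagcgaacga

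Aspn, chr13:49544193-49544492, plus strand: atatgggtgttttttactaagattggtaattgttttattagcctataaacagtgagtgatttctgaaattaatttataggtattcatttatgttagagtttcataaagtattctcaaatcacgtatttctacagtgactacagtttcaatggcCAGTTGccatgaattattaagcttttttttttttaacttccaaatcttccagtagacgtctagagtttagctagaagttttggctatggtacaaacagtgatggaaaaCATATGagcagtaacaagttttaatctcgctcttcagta

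The Ogn window held 4 matches to CANNTG, Aspn 2, Bgn 1 and Hspg2 none. Of 32851 promoter windows of this length, 72.3% held at least 1 match, so a match is common. The version CAGCTG, present in 16.3% of windows, occurred once in Ogn and once in Bgn and in no other member's window. CACCTG or its reverse complement CAGGTG, present in 20.2% of windows, occurred in none of the members' windows. These letters are a description of the windows and not of binding. Promoters matched for 8 of the 10 members, and those of Dcn and Lum are not shown.

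Per kilobase of gene length and averaged over all 6 libraries, the order of levels ran from Agrn through Hspg2, Dcn, Vcan, Ogn, Bgn, Prelp, Aspn and Fmod to Lum. Agrn had a mean of 84.1 CPM per kb in NT and 90.7 CPM per kb in siID4, above 93.3% of the genes tested. Hspg2 followed with 54.6 and 62.1 CPM per kb, and Agrn and Hspg2 together made up 64.2% ± 3.36 of the summed length-scaled level of the 10 members in NT and 64.5% ± 2.52 in siID4 (SD, n = 3 per arm). In the middle of the order stood Dcn with 33.2 and 26.1, Vcan with 24.0 and 21.2, Ogn with 11.7 and 23.6, Bgn with 4.32 and 8.26 and Prelp with 3.97 and 4.68 CPM per kb in NT and siID4. Aspn was at 0.532 and 0.576 CPM per kb. Heparan sulphate basement membrane proteoglycans were thus the most abundant members, and collagen-binding ones spanned the range below them. Neighbours in this order whose libraries overlapped were Bgn with Prelp and Fmod with Lum in NT, and Dcn with Vcan and Vcan with Ogn in siID4. Every other pair of neighbours was separate in every library of an arm.

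**Figure D1:**
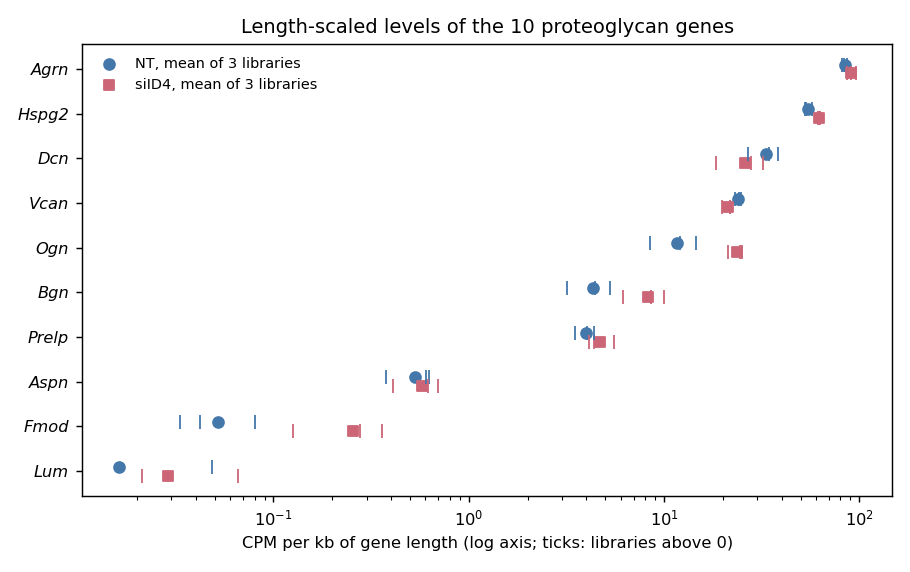
Level of each of the 10 genes in CPM per kb of gene length on a log axis, with circles (NT) and squares (siID4) for the mean of 3 libraries and ticks for single libraries above 0. Agrn and Hspg2 stand at the top, and the siID4 square of Ogn (23.6) lies beside Vcan (21.2) while its NT circle (11.7) lies below Vcan (24.0).

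Of the 8 members that passed the filter, 3 rose and none fell in siID4, Ogn, Bgn and Hspg2, against 9.55% of all genes tested that were called, 4.62% higher and 4.93% lower. The median log2 fold change was 0.16 over the 8 members and 0.00 over all genes tested. Members that passed a filter on low counts are not all members, and 2 genes (Lum and Fmod) stayed below it. The replicate numbers were taken to pair the libraries across arms, which the labels do not state. With the number as a block 5 members rose and 2 fell, where 36.1% of all genes were called, 17.9% higher and 18.3% lower. Ogn, Bgn, Vcan, Hspg2 and the untested Fmod had no overlap between their arms, which was also so for 30.9% of the genes tested. Leaving out NT replicate 2 gave 1 called member, as did leaving out siID4 replicate 1, and leaving out siID4 replicate 2 gave 0. The share of all genes called was lower in these fits too, at 4.44%, 6.27% and 3.14%, and 9, 8 and 8 members were tested. In the fit of all 6 libraries, 4 members had an unadjusted edgeR p under 0.05, and DESeq2 called 4 and limma-voom 3 of the 8.

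**Figure D2:**
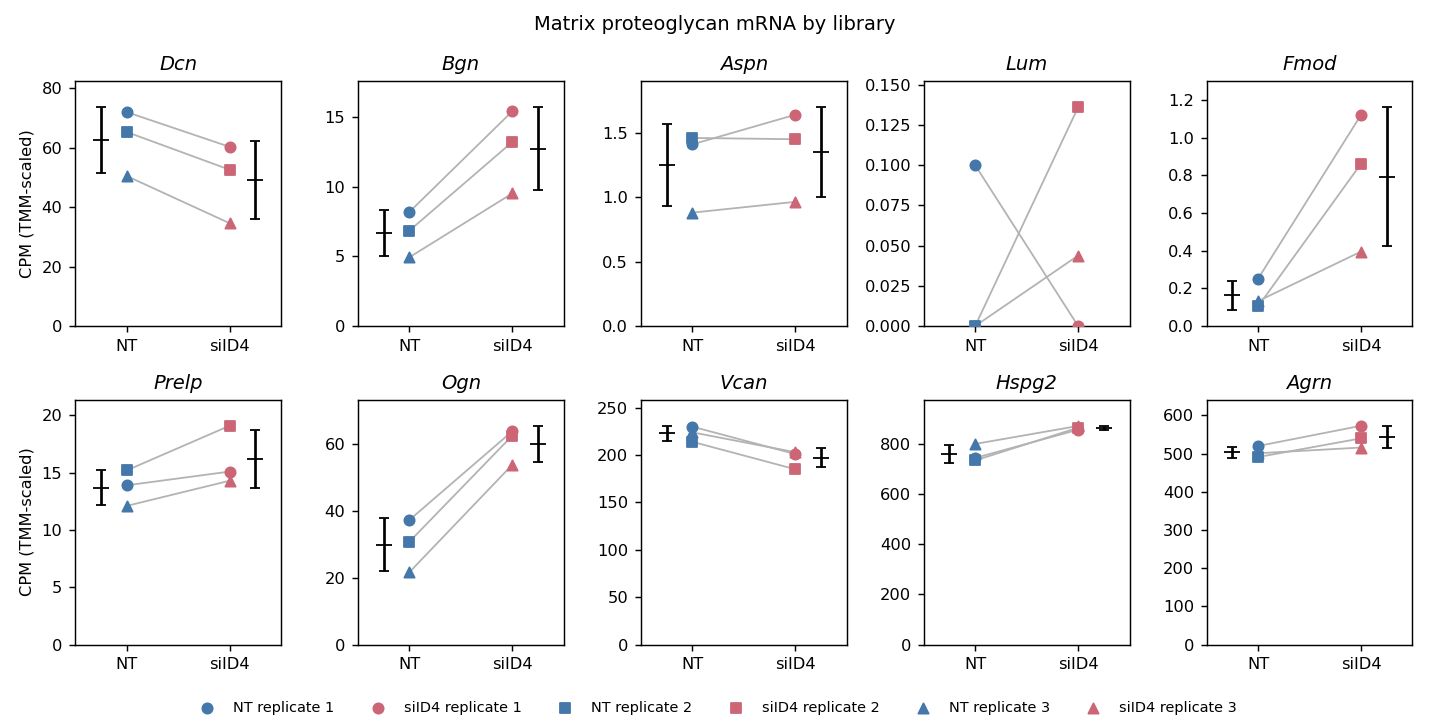
Normalised level (CPM, each panel from 0) of the 10 genes in each NT and siID4 library, with grey lines joining libraries of the same replicate number and black bars for mean ± SD of 3 libraries (no bar for Lum, which had at most 3 counts). Ogn, Bgn, Hspg2 and Fmod are higher in each siID4 library than in each NT library, Vcan is lower, and the lines of Dcn slope down while its arms overlap.

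Osteoglycin, encoded by Ogn (ENSMUSG00000021390, chr13:49608046-49624501, plus strand, GRCm38), is a small leucine-rich proteoglycan of connective tissue, also called mimecan. NT libraries held 37.2, 30.7 and 21.6 CPM of it, and siID4 libraries 63.7, 62.4 and 53.7 CPM. Each siID4 library was above each NT library, and the lowest of each arm was replicate 3. Mean levels were 29.8 ± 7.83 CPM in NT and 59.9 ± 5.41 CPM in siID4 (SD over 3 libraries each). An exact two-sided permutation test gave p = 0.100, the smallest that 3 against 3 allow. Ogn rose by 1.01 on the log2 scale with SE 0.18 (edgeR adjusted p = 0.0128), the largest change among the 8 tested members. The call was lost without siID4 replicate 2 (adjusted p = 0.0503) and with no filter on low counts (0.0735), and it passed in the other 5 fits without 1 library. Ogn has a GC content of 36.3%, and with the GC trend of each library removed its log2 fold change was 1.07 (adjusted p = 0.00685).

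Biglycan, encoded by Bgn (ENSMUSG00000031375, chrX:73483602-73495933, plus strand), is a collagen-binding proteoglycan that also acts as a signal through Toll-like receptors when released from the matrix. Bgn was at 8.18, 6.84 and 4.93 CPM in NT and at 15.4, 13.2 and 9.51 CPM in siID4. The arms did not overlap, and in each the lowest library was replicate 3. Bgn rose from a mean of 6.65 ± 1.64 to 12.7 ± 2.98 CPM, a log2 fold change of 0.94 with SE 0.22 (edgeR adjusted p = 0.0338). Within each replicate number the difference was nearly the same, at 0.91, 0.94 and 0.94 on the log2 scale. Of 6 fits with 1 library left out, Bgn passed in 2, and it did not pass without NT replicate 2 (adjusted p = 0.102), NT replicate 3 (0.0662), siID4 replicate 1 (0.0815) or siID4 replicate 2 (0.126).

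Decorin, encoded by Dcn (ENSMUSG00000019929, chr10:97479609-97518143, plus strand), is a close relative of biglycan. Per kilobase it had the highest mean of the small leucine-rich members in both arms, although in siID4 replicate 3 Ogn was higher (21.2 against 18.3 CPM per kb). Dcn was at 72.0, 65.3 and 50.5 CPM in NT and 60.3, 52.6 and 34.6 CPM in siID4, so the arms overlapped. The log2 fold change was −0.35 (SE 0.22, 95% interval −0.86 to 0.16, edgeR adjusted p = 0.372). Within the replicate numbers siID4 was lower in 3 of 3, by −0.26, −0.31 and −0.54 on the log2 scale, and with the replicate block Dcn fell (log2 fold change −0.36, SE 0.05, adjusted p = 1.13e-06).

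The makeup of the small leucine-rich group, taken within each library, did not overlap between the arms for its 3 leading genes. Dcn made up 60.7%, 61.6% and 63.1% of the summed length-scaled level of the 7 genes in NT and 44.1%, 41.3% and 36.4% in siID4. The share of Ogn was 21.6% ± 1.62 in NT and 37.7% ± 3.86 in siID4, and that of Bgn 7.97% ± 0.454 and 12.9% ± 0.794 (SD, n = 3 per arm). Each of the 3 shares was tested over the libraries (exact permutation p = 0.100 each, 0.200 after Benjamini-Hochberg adjustment over the 10 sums, shares and ratios computed). The ratio of Dcn to Ogn per kilobase was 2.87 ± 0.269 in NT and 1.09 ± 0.207 in siID4, and the ratio of Dcn to Bgn 7.78 ± 0.587 and 3.14 ± 0.147, values that no scaling between libraries can alter. Prelp kept a share of 7.49% ± 0.998 and 7.48% ± 1.25. Shares of 1 sum depend on each other, and the ratios use the same values. They are thus not evidence apart from the rises of Ogn and Bgn, and Dcn itself was not called with group only. No overlap was also seen in the CPM of 30.9% of the single genes tested. The summed level of the 7 genes was 53.8 ± 10.5 CPM per kb in NT and 63.5 ± 11.6 in siID4, with arms that overlapped.

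Prelp and Aspn were not called. Prelp (ENSMUSG00000041577, chr1:133910304-133921414, minus strand) encodes prolargin, a leucine-rich protein thought to anchor basement membranes to the collagen beneath. It was at 13.9, 15.2 and 12.1 CPM in NT and 15.1, 19.1 and 14.3 CPM in siID4, with overlapping arms. Its log2 fold change was 0.24 (SE 0.13, 95% interval −0.06 to 0.53, adjusted p = 0.294), and it rose with the replicate block (0.23, adjusted p = 0.0126). An antisense gene, Gm15851, shares 350 exonic bases with Prelp and had at most 1 count in any library. Prelp kept its positive sign in every fit run. Asporin, encoded by Aspn (ENSMUSG00000021388, chr13:49544443-49567565, plus strand), is a relative of decorin and biglycan. It was at 1.41, 1.46 and 0.880 CPM in NT and 1.64, 1.45 and 0.964 CPM in siID4, from 20 to 38 counts per library. Its interval of −0.52 to 0.78 around a log2 fold change of 0.13 was the widest of the 8 members (adjusted p = 0.834 and 0.748 with the replicate block), and its sign turned without NT replicate 3 (−0.09) and without siID4 replicate 1 (−0.04).

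Lum and Fmod were near the floor of detection. Lumican, a collagen-binding proteoglycan of cornea and skin encoded by Lum (ENSMUSG00000036446, chr10:97565128-97572703, plus strand), had 2, 0 and 0 counts in NT and 0, 3 and 1 in siID4. No library was above 3 counts, the limit that a count of 0 allows, and a difference was not detectable at this depth. Fibromodulin, encoded by Fmod (ENSMUSG00000041559, chr1:134037254-134048277, plus strand), is another collagen-binding member. It had 5, 2 and 3 counts in NT and 26, 19 and 9 in siID4, and the lowest siID4 library was above the highest NT library. From 10 counts in all NT libraries and 54 in all siID4 libraries the ratio of rates was 4.90 (95% exact binomial interval 2.47 to 10.8, counting error only). With no filter on low counts edgeR put the log2 fold change of Fmod at 2.25 (adjusted p = 0.00549, SE 0.51), in a fit that called 6.43% of 22677 genes. In 4 of the fits without 1 library Fmod passed the filter, and it was called in 2 of these 4. It could pass the filter only through the siID4 libraries where it was high, so these fits are not given as support.

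Most of the small leucine-rich members lie in clusters with relatives, whose levels and changes were set beside theirs with no test of the differences. On chromosome 13 the order is Ecm2, Aspn, Omd and Ogn, with gaps of 11.7, 14.9 and 15.2 kb. Ogn had a mean of 59.9 CPM in siID4, whereas Ecm2, Aspn and Omd had 1.10, 1.35 and 0.719 CPM. Omd, which encodes osteomodulin, differed by 0.01 on the log2 scale (adjusted p = 0.996; −0.10 in limma-voom and −0.03 with the replicate block) and Ecm2 by 0.62 (0.191). All 4 overlap Cenpp, a gene on the other strand that was at 7.61 CPM in NT and 8.17 CPM in siID4 (adjusted p = 0.655). On chromosome 10, Dcn stands 47.0 kb from Lum, which stands 34.2 kb from Kera, a gene of corneal matrix that was at 0 in all 6 libraries. On chromosome 1, Optc, 2.3 kb from Prelp, was at 0.703 and 0.897 CPM (log2 fold change 0.36, adjusted p = 0.483), and Fmod lies 115.8 kb beyond Prelp.

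Versican, encoded by Vcan (ENSMUSG00000021614, chr13:89655312-89742509, minus strand), holds water in loose matrix through its chondroitin sulphate and the hyaluronan it binds. It was at 230, 214 and 224 CPM in NT and 201, 185 and 203 CPM in siID4, with each siID4 library below each NT library. The log2 fold change of −0.18 (SE 0.05, 95% interval −0.30 to −0.06) did not pass in edgeR (adjusted p = 0.0596), and it did in DESeq2 (0.0459) and with the replicate block (6.04e-06). Counts are per gene, so the splice forms of versican, which differ in how much sugar they carry, are not told apart.

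Of the basement membrane members Hspg2 rose by a small amount and Agrn was not called. Perlecan, encoded by Hspg2 (ENSMUSG00000028763, chr4:137468769-137570630, plus strand), links laminin, collagen IV and nidogen and stores growth factors on its heparan sulphate. Hspg2 was at 746, 736 and 802 CPM in NT and 859, 867 and 874 CPM in siID4. The siID4 libraries lay close together and above every NT library. Hspg2 rose by 0.19 (SE 0.05, 95% interval 0.08 to 0.29, adjusted p = 0.0344). Of the 6 fits that left out 1 library, Hspg2 passed without NT replicate 3 (adjusted p = 0.0165). It did not pass without NT replicate 1 (0.0803), NT replicate 2 (0.140), siID4 replicate 1 (0.0844), siID4 replicate 2 (0.137) or siID4 replicate 3 (0.0923). Hspg2 is the longest member at 13949 bases and has a GC content of 60.8%, and the call was lost with the length trend removed (0.16, adjusted p = 0.113) or the GC trend removed (0.13, 0.0656). In both of these corrections it passed with the replicate block (adjusted p = 1.28e-05 and 2.79e-05).

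Agrin, encoded by Agrn (ENSMUSG00000041936, chr4:156165290-156197488, minus strand), binds dystroglycan on epithelial cells and clusters acetylcholine receptors at the nerve-muscle synapse. It was at 520, 491 and 501 CPM in NT and 573, 540 and 516 CPM in siID4, where siID4 replicate 3 lay below NT replicate 1. Its log2 fold change was 0.11 (SE 0.05, adjusted p = 0.207), and with the replicate block it rose (0.11, SE 0.03, adjusted p = 0.00163).

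**Figure D3:**
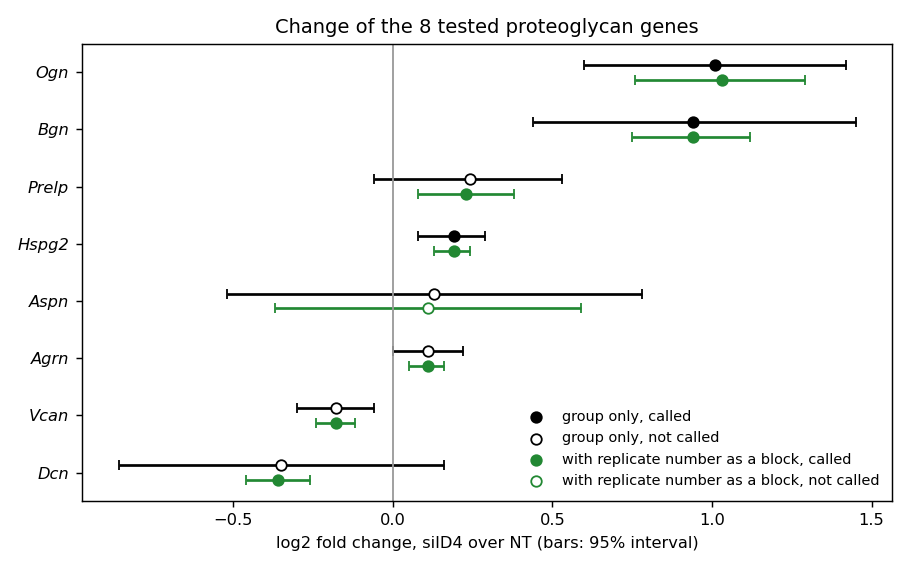
Log2 fold change of the 8 tested genes, siID4 over NT, with 95% intervals, in black for the fit with group only and in green for the fit with the replicate number as a block, filled where called. Ogn (1.01) and Bgn (0.94) stand apart to the right, Dcn (−0.35) and Vcan (−0.18) lie to the left, and the block narrows the interval of Dcn from −0.86 to 0.16 down to −0.46 to −0.26.

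For several members, libraries of the same number ranked alike in both arms. Of the 8 tested members 5 were lowest in replicate 3 in NT, 6 were in siID4, and 5 were in both arms. The order of the 3 libraries was the same in the arms for Dcn, Bgn, Ogn and Prelp. Differences within numbers had 1 sign in all 3 pairs for 7 of the 8, the exception being Aspn. For Ogn they were 0.78, 1.02 and 1.31 on the log2 scale, and for Vcan −0.19, −0.21 and −0.14. The same counts were not made over all genes tested, so nothing particular to the members can be read from them.

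For each called member the 3 most similar genes were sought among the 10798 tested genes whose mean reached 5 CPM, by Pearson's r of log2 CPM over the 6 libraries, which share the contrast and the replicate numbers. Nearest to Ogn were Ddx58 (r = 0.9997), Nek9 (0.9983) and Zbp1 (0.9975). Ddx58 went from 125 to 207 CPM and Zbp1 from 11.4 to 26.8 CPM. Nearest to Bgn were Serhl (0.9989), Fbxw17 (0.9979) and Tex15 (0.9978), and nearest to Hspg2 were Osbpl5 (0.9967), Mex3a (0.9943) and Sh3bp5l (0.9940). With 6 libraries and this many genes, values this high are a description only.

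Other genes of the proteoglycan system were counted from fixed lists, each read against the 9.55% of all genes called. Over these lists 22 of 132 genes tested were called, 11 higher and 11 lower (17 and 11 when scaled by library totals). No other small leucine-rich gene was called (0 of 6 tested by edgeR, DESeq2 or limma-voom, with 3 at an unadjusted edgeR p under 0.05). With the replicate block Podn rose (adjusted p = 0.0381) and Podnl1 fell (0.00466), 2 genes named after their values were seen. Among 11 genes of large hyaluronan-binding proteoglycans, link proteins and hyaluronan handling, the link protein gene Hapln4 rose (1.09 to 2.16 CPM, adjusted p = 0.0491) and Hmmr, a hyaluronan receptor better known on the mitotic spindle, fell (118 to 88.8 CPM, adjusted p = 0.00361). Hapln4 lost its call in 5 of the 6 fits without 1 library, in DESeq2 and with the GC trend removed. Of 5 other secreted proteoglycans and related calcium-binding proteins, Spock2 and Smoc2 rose at levels under 3 CPM, and each passed in 0 of the 6 fits without 1 library. Neither was called by DESeq2, nor Spock2 with no filter on low counts. With the replicate block the hyaluronan list had 4 up and 2 down, and these secreted proteins 4 up and 0 down. In that fit 36.1% of all genes were called.

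Cell surface proteoglycans moved in both directions, with 4 up and 2 down of 12 tested and a median log2 fold change of −0.02. Sdc3, a syndecan that spans the membrane and carries heparan sulphate, rose from 79.0 ± 0.721 to 119 ± 4.63 CPM (a log2 change of 0.59 with SE 0.05, adjusted p = 0.000391). Gpc1, a glypican held in the membrane by a lipid anchor, fell from 205 ± 11.1 to 137 ± 6.76 CPM (−0.58, SE 0.06, adjusted p = 0.000778). Tgfbr3, the TGF-β co-receptor betaglycan, fell from 55.7 ± 11.3 to 28.5 ± 4.92 CPM (adjusted p = 0.0124), and the glypican gene Gpc6 rose from 57.2 ± 4.64 to 77.6 ± 8.91 CPM (0.0177). Sdc3 and Gpc1 passed in every fit without 1 library. Tgfbr3 did not pass without siID4 replicate 2 (adjusted p = 0.0528) or with no filter on low counts (0.0674), nor Gpc6 without NT replicate 2 (0.0828). Of the 12, 5 rose and 4 fell with the replicate block, where 36.1% of all genes were called.

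Enzymes that make the sugar chains were counted in 4 groups. Of 16 genes of the linker and precursor supply, 1 rose and 3 fell. Papss1, which makes the sulphate donor, fell from 121 to 104 CPM (adjusted p = 0.0208), and its relative Papss2 rose from 9.74 to 13.4 CPM (0.0279). Ugdh and Uxs1, which make the nucleotide sugars UDP-glucuronate and UDP-xylose, fell, with log2 fold changes of −0.20 (adjusted p = 0.0309) and −0.23 (0.0274). Of 14 genes of chondroitin and dermatan sulphate synthesis, Csgalnact1, which starts chondroitin chains, fell from 22.2 ± 1.05 to 15.6 ± 0.608 CPM (−0.51, SE 0.08, adjusted p = 0.00485). Among 20 genes of heparan sulphate synthesis and editing edgeR called 0, limma-voom 0 and DESeq2 1, with 7 at an unadjusted edgeR p under 0.05. Of 6 keratan sulphate genes Chst1, a sulphotransferase, fell from 3.04 ± 0.164 to 1.11 ± 0.406 CPM (−1.45, SE 0.25, adjusted p = 0.00825), and Fut8, a fucosyltransferase of N-linked sugars, fell by 0.30 (0.0210). Csgalnact1 and Chst1 passed in every fit without 1 library, Papss1 and Fut8 in 3 of the 6, Papss2 and Uxs1 in 2 and Ugdh in 1. With the replicate block these 4 groups of enzyme genes had 2 up and 4 down, 4 up and 2 down, 6 up and 3 down, and 0 up and 3 down, in a fit where 36.1% of all genes were called.

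**Figure D4:**
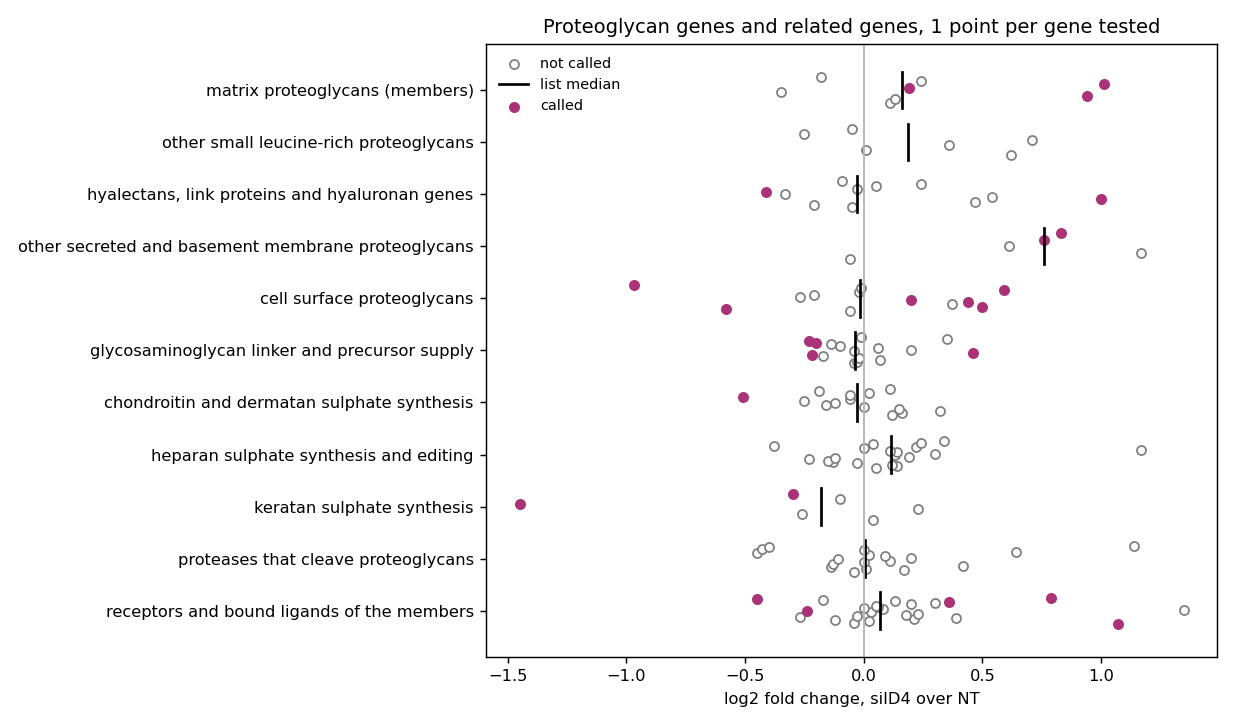
Log2 fold change (siID4 over NT) of every tested gene in the members' list and in 10 lists of related genes, with filled points for called genes and a black line for each list's median. Called points lie on both sides of 0 for cell surface proteoglycans, and the lowest is the keratan sulphate gene Chst1 (−1.45).

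Proteases that cleave these proteoglycans, among them versican-cleaving ADAMTS enzymes, had 0 of 18 called by edgeR and limma-voom and 2 by DESeq2, with 4 at an unadjusted edgeR p under 0.05. Of the 18, 5 rose and 4 fell with the replicate block. Of 24 receptors and bound ligands, 3 rose and 2 fell. Wisp1, a matricellular protein of the CCN family that binds decorin and biglycan, rose from 63.3 ± 5.73 to 110 ± 7.31 CPM (0.79 on the log2 scale, SE 0.07, adjusted p = 0.000663). Bmp4, a growth factor gene, rose from 3.06 to 6.36 CPM (adjusted p = 0.0111) and Tgfb3 from 111 to 142 CPM (0.0228), while Vegfa, an angiogenic factor, fell from 200 to 146 CPM (0.00736). Wisp1 passed in every fit without 1 library and Tgfb3 in 2 of the 6. Without siID4 replicate 2, neither Bmp4 (adjusted p = 0.0542) nor Vegfa (0.0508) passed. In that fit the count over all these lists was 7, without NT replicate 2 it was 11 and without siID4 replicate 1 it was 13. With the replicate block it was 66 of 132, 40 higher and 26 lower, against 36.1% of all genes in the same fit. Receptors and ligands had 9 up and 3 down of 24 there.

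Fibroblast markers moved in both directions. Of 12 tested, 4 rose and 3 fell, with a median log2 fold change of 0.45, where 9.55% of all genes were called. With the replicate block 7 rose and 4 fell, where 36.1% of all genes were called. Col1a1, a collagen I chain, rose from 1171 ± 69.8 to 1817 ± 31.3 CPM (adjusted p = 0.000391) and Cxcl12 from 250 ± 22.0 to 401 ± 28.8 CPM (0.00138), whereas Pdpn fell from 59.5 ± 2.50 to 41.5 ± 0.796 CPM (0.00152). Dpt, a marker of fibroblasts in tissue, had from 3 to 10 counts per library and Pi16 at most 1. Other called fibroblast markers went both ways, with Col1a2 (1074 to 1420 CPM) and Pdgfrb (244 to 327 CPM) higher. Vim (1448 to 1108 CPM) and Pdgfra (56.0 to 36.3 CPM) were lower. Summed fibroblast markers did not overlap between the arms, as given above. The sum is weighted to its most abundant genes, among them collagens, and is not a rise of every marker. The part of fibroblast markers in the changes of Ogn and Bgn was not tested. Among mammary epithelial markers Cdh1 and Trp63 rose and Epcam fell (2 up and 1 down of 10), passing in 2, 2 and 4 of the 6 fits without 1 library. With the replicate block 2 of the 10 rose and 6 fell, against the same 36.1% of all genes. Markers of endothelium and pericytes summed to 0.783 to 1.28 CPM in NT and 1.93 to 2.72 CPM in siID4, of leukocytes to 3.03 to 3.26 and 3.49 to 3.99 CPM, and of adipocytes to 2.56 to 2.72 and 3.02 to 3.50 CPM. Each of these sums, though low, was higher in every siID4 library than in every NT library. The arms also did not overlap for 30.9% of the single genes tested. Of these 3 lists 4 genes passed the filter, and 0 were called by edgeR, DESeq2 or limma-voom, with 2 at an unadjusted edgeR p under 0.05. The endothelial gene Kdr rose with the replicate block (0.266 to 0.707 CPM, adjusted p = 0.0106) and the other 3 were not called.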

How the data were processed

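Poly(A) RNA of 6 libraries was made with a strand-marking kit, per the labels' protocols. The authors deposited expected counts per gene with a gene length column, and cutadapt, STAR, RSEM and mm10 appear in the submitters' processing notes. Strand setting and annotation release were not given in the sources used here. Values were rounded to whole numbers (10.0% to 10.6% of values per library were not whole, tolerance 0). The test was edgeR 4.0.16 (R 4.3.3), quasi-likelihood with robust dispersions, TMM scaling, filterByExpr and group as the only term. SE came from the F statistic. DESeq2 1.42.0 and limma-voom 3.58.1 were alternatives, with other scalings, filters, length and GC trends, and each library left out. The scripts were tested on simulated data. Log2 CPM used a prior count of 2. CPM per kb used the deposited length. Gene positions are from GENCODE M21 on GRCm38, and promoters from RefSeq.

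Libraries that share a number showed deviations in common from their arm's mean (correlation across genes 0.424, 0.14 and 0.378 for the 3 pairs, and at most −0.021 otherwise), so the numbers were taken as pairs. Deviations within an arm cancel, so the values outside the pairs are not separate support. The pairing was chosen from the same data as the fits with the block, and the labels do not say what pairs share. Calls with the block are given for the members and, as counts, for the lists, with Podn, Podnl1 and Kdr also named. Libraries within an arm differed by more than sampling noise, with a chi-square of 5.09 to 13.6 per gene. The members and lists were chosen with earlier results of these data known. All members are named. Other genes are named by rule, up to 4 called genes with the smallest adjusted p per list (3 for markers), cluster neighbours, and the 3 genes of most similar pattern per called member. The remaining called fibroblast markers, Podn, Podnl1, Kdr, Cd68 and Pparg were named after their values were seen. Dpt and Pi16 were also named outside the rule. Where a symbol had more than 1 row, the row with the larger total was used.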

Additional observations from a re-analysis of the deposited data

How the results depend on the processing

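With the replicate block, 5038 genes were called over all genes tested, 7 members and 66 related genes. With the block and the length trend removed the counts were 5084, 7 and 67, and with the block and the GC trend removed 5194, 7 and 64. Leaving out 1 library gave 445 to 1351 genes over all genes tested, 0 to 3 members and 7 to 19 related genes. The cause of these differences was not tested, and the fits without 1 library also hold fewer samples. With library totals the calls over all genes were 829 higher and 564 lower, against 644 and 687 with TMM. Of the called genes named in the text, Col1a2, Pdgfrb, Vim and Pdgfra were not followed through all alternatives. Nor were Podn, Podnl1 and Kdr, which were named for their calls with the replicate block. No other changed sign under any alternative run, whereas Aspn and Omd, neither of them called, did. Dcn and Prelp were each called in the 3 fits with the block and in no other. Aspn, at 20 to 38 counts per library, was called in 0 of its fits with edgeR, DESeq2 and limma-voom, and depth limits what can be said of it, of Fmod and of Lum.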
